A study of Mus musculus with 4 samples.

Results

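Plasmacytoid dendritic cells (pDCs) of the marrow around an injured mouse growth plate were read from 2 single-cell RNA libraries. By its title the study is about somatosensory nerves in the response to growth plate injury, and all 4 of its groups carried the TrkAF592A genotype, a TrkA receptor kinase made sensitive to the compound 1NMPP1. Controls got the vehicle, DMSO, into the peritoneum. The other animals got 1NMPP1 the same way as a 5 mM solution at 17 µg per g, once 48 h and once 2 h ahead of surgery, and afterwards 40 µM 1NMPP1 in drinking water that held 1% PBS-Tween. Tissue was collected 7 days after injury from the growth plate end of the femur and from dorsal root ganglia (DRG), with 1 library for each tissue and treatment. How many animals went into a library was not stated. No comparison has a replicate check, so no p-value is given.

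A cell was taken as a pDC when its barcode had at least 200 genes, at most 20% mitochondrial UMIs (unique molecules counted), at least 1 UMI of Siglech, UMIs of at least 2 of Ccr9, Cox6a2, Klk1, Tcf4 and Runx2, and 0 UMIs of Ebf1 and Ly6g. This rule reads measured values, so the levels of these genes are a description of how the cells were chosen. It found 224 cells among 21014 kept growth plate cells, 95 of 9380 in the vehicle library and 129 of 11634 in the 1NMPP1 library. Those cells held 1367406 and 2220355 UMIs. Their median depth was 12201 UMIs in vehicle (768 to 43820) and 14452 in 1NMPP1 (1352 to 70422), against medians of 6859 and 7468 over all kept cells.

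Plasmacytoid dendritic cells are known as the main rapid source of type I interferon. They sense viral RNA and DNA in endosomes through Tlr7 and Tlr9, signal through Myd88 and Irf7, and are kept in their lineage by the transcription factor Tcf4 (E2-2). They mature in the marrow from Flt3-dependent progenitors, of both lymphoid and myeloid origin, and leave it for blood and tissues. Resting pDCs make little interferon and present antigen weakly compared with conventional dendritic cells.

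Male-called cells (Y-linked UMIs and none of Xist) were 65.3% of the vehicle and 30.2% of the 1NMPP1 pDCs, and female-called cells were 23.2% and 61.2%. The libraries thus differed in sex make-up as well as in treatment, and values within each sex are given where they turned a direction or took an interval across 0. The libraries shared 39 kept barcodes, none of them a pDC.

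Siglech, a sialic acid-binding lectin of mouse pDCs that signals through Tyrobp (Ensembl gene ENSMUSG00000051504, chromosome 7, bases 55768178 to 55778925 of GRCm38), was at 877 CPM in vehicle (the gene's UMIs over all UMIs of the pDCs of that library, in the usual CPM unit) and 840 in 1NMPP1 pDCs. In all other kept cells of the same libraries it was at 4.50 and 4.85 CPM. The share of cells with at least 1 Siglech UMI was 0.507% and 0.861% in B-lineage cells and 0.418% and 0.947% in neutrophils, which gives the background against which single Siglech UMIs must be read. Of the pDCs, 10 and 15 had only 1 Siglech UMI. Just inside the rule, 9 and 16 pDCs had exactly 2 of the 5 further markers. Just outside it, 3 cells in each library had 1 marker, and none of them held more than 1 Siglech UMI. A further 32 and 61 cells met the positive markers but held Ebf1 or Ly6g, of which 15 and 33 did so with a single UMI.

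The other chosen genes were also higher than in the remaining cells, Tcf4 and Runx2 by less. The chemokine receptor Ccr9 was at 424 and 350 CPM in pDCs against 2.14 and 3.04 CPM elsewhere, and 71.6% and 71.3% of pDCs held a UMI of it. Cox6a2, a cytochrome oxidase subunit otherwise known from heart and skeletal muscle, was at 859 and 876 CPM against 6.50 and 9.09. Klk1, a kallikrein protease, was at 59.97 and 77.5 CPM, in 25.3% and 27.9% of pDCs. Tcf4 was at 3646 and 3023 CPM against 168 and 164, and Runx2, a factor for pDC egress from marrow, at 1679 and 1424 CPM against 83.4 and 81.5.

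**Figure D1:**
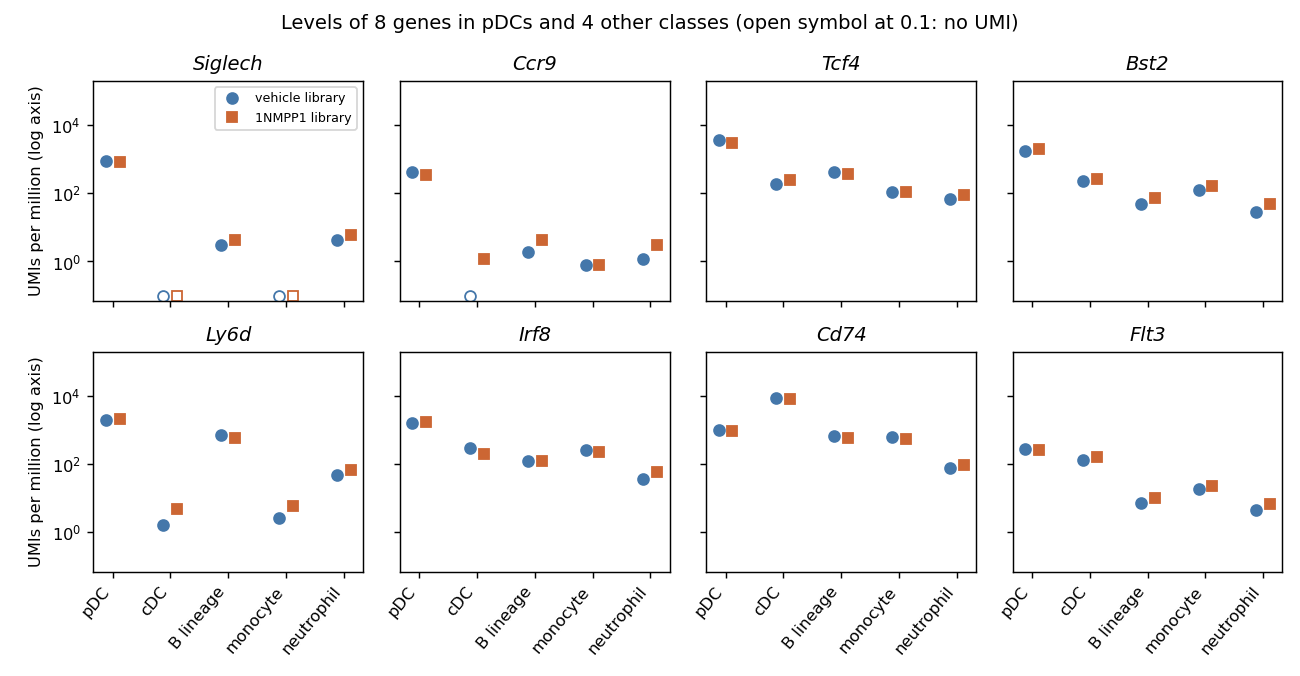
Each panel gives 1 gene as CPM over the summed cells of a class (log axis), in the vehicle library (blue circles) and the 1NMPP1 library (orange squares), for pDCs, conventional dendritic cells (cDC), B-lineage cells, monocytes and neutrophils. Siglech, Ccr9 and Tcf4 chose the pDCs, and a Siglech UMI kept a cell out of the cDC and monocyte classes. The cDC class asked, among other markers, for a UMI of the MHC class II gene H2-Ab1. Among the other genes Bst2, Ly6d, Irf8 and Flt3 are highest in pDCs, and Cd74 is highest in cDCs at 8778 and 8251 CPM.

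The label was then checked against the other genes of the same cells. Of the pDCs, 91 and 122 lay in 1 of 25 clusters of the growth plate cells, but they made up only 34.2% and 33.3% of it. Splitting that cluster gave 9 subclusters, and 164 of the 224 pDCs (73.2%) lay in the 3 in which pDCs were the majority. Subcluster 1 held 76 pDCs among 84 cells and was led by Cxcl9, Pgam2, Dnase1l3, Klk1, Cd8b1, Klk1b27, Cdh22, Cd4, Grm8 and Slamf9. Subcluster 2 held 52 among 67 and was led by Hrh1 and Egfr, with Cd8a among its leading genes. Subcluster 3 held 36 among 54 and was led by Gzma, which is also an NK cell marker, and Sdk1. The vascular marker Cdh5 was among its leading genes. All 36 of its pDCs were cycling.

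The remaining subclusters held mostly cells outside the rule. Subcluster 4 (17 pDCs of 59 cells) was led by the pre-B cell receptor gene Vpreb2, with Dntt, an enzyme of antigen receptor rearrangement, among its leading genes, and subcluster 5 (19 of 96) by Thy1. In the pDCs of subcluster 5 the monocyte gene F13a1 stood at 318 CPM against 6.7 CPM in subcluster 1. Subclusters 6 to 8 were led by genes that included the neutrophil gene Camp, the granulocyte progenitor genes Prtn3 and Mpo, and the eosinophil and mast cell genes Prg2, Epx and Cpa3, and held 7, 4 and 2 pDCs. Subcluster 9, with the platelet gene Pf4, held 0. The name pDC is therefore used below for all cells of the rule, and values for the 164 cells of subclusters 1 to 3 are given for the results they move most.

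**Figure D2:**
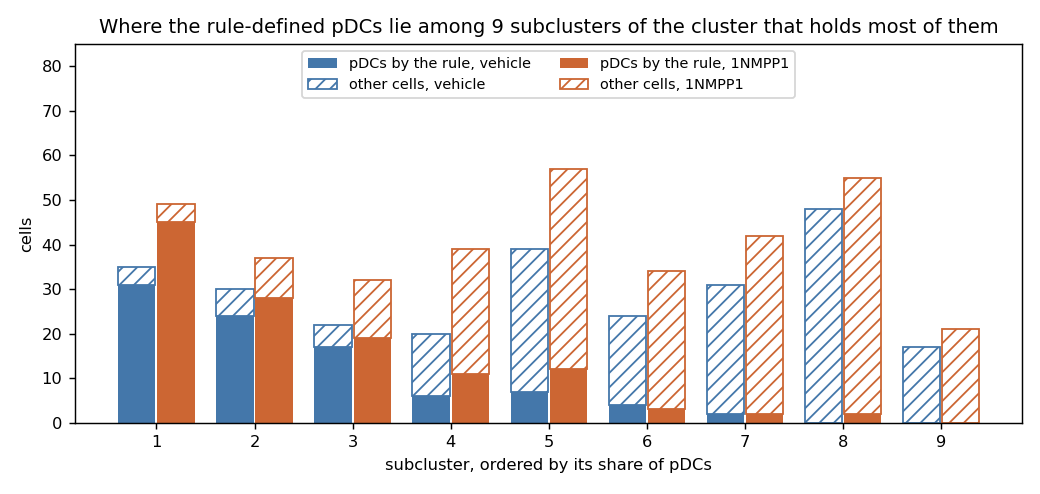
Bars give the number of cells of each library (vehicle blue, 1NMPP1 orange) in the 9 subclusters, ordered by their share of pDCs; filled parts are cells of the rule and hatched parts are other cells. Filled parts are the larger share only in subclusters 1 to 3, which hold 72 vehicle and 92 1NMPP1 pDCs.

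The 3 majority subclusters differed in some of the genes that define pDCs, in Siglech and Tcf4 more than in Cox6a2. Siglech was at 1875 CPM in the pDCs of subcluster 1, 990 in subcluster 2, 542 in subcluster 3, 474 in subcluster 4 and 101 in subcluster 5. Tcf4 was at 5270, 4572, 2481, 2931 and 1138 CPM. Cox6a2 was at 1167, 1160, 980, 1493 and 85.1 CPM. Subcluster 1 alone carried the antigen presentation genes at a high level: Cd74, the invariant chain, was at 2691 CPM there and at 368 and 310 CPM in subclusters 2 and 3, and the MHC class II chain H2-Aa was at 994, 98.2 and 84.9 CPM. The glutamate receptor gene Grm8 was at 1653 CPM in subcluster 1 and at 270 and 43.7 CPM in subclusters 2 and 3. Ly6d, a surface marker of lymphoid progenitors, ran the other way, at 1733, 2840 and 3381 CPM in subclusters 1 to 3 and 4132 CPM in subcluster 4. These cells were clustered on their own genes, so the differences describe the subclusters and are not tested.

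Markers of other cell types were measured in the same pDCs. B-lineage markers, among which the rule's Ebf1 is not counted, gave 15 UMIs in vehicle and 66 in 1NMPP1 summed over 6 genes (Ms4a1 at 0 in 1NMPP1). That was 11.0 and 29.7 CPM against 595 and 648 CPM in other cells. The rule took out 21 and 42 otherwise qualifying cells for Ebf1 and 11 and 30 for Ly6g. Low B-lineage and neutrophil markers are thus in part set by the choice of cells and are no independent check of the label. T cell markers gave 2 and 27 UMIs, with Cd3d, Cd3e and Cd3g at 0 in vehicle. The 6 conventional dendritic cell markers summed to 237 and 275 CPM, with Xcr1 at 0 in vehicle. That was higher than the 19.0 and 22.5 CPM in other cells. Monocyte markers were at 883 and 649 CPM against 1278 and 1407 CPM in other cells. NK cell markers were at 111 and 52.7 CPM against 161 and 183 CPM, with up to 75 UMIs in a vehicle cell. Granulocyte progenitor markers were at 251 and 1317 CPM against 3474 and 3282 CPM. Skeletal and vascular markers were at 2328 and 411 CPM against 2561 and 1457 CPM. Megakaryocyte markers were at 10.2 and 35.1 CPM against 151 and 22.9 CPM, so higher than elsewhere in 1NMPP1. Neutrophil markers stood at 4688 and 13815 CPM against 150387 and 140616 CPM in other cells, and most of that came from few cells: 4 pDCs in each library held 55.5% and 78.1% of all S100a8 and S100a9 UMIs. In 5 vehicle and 8 1NMPP1 pDCs, the markers of at least 1 other class exceeded 150 UMIs. The highest sum in vehicle was 2572 UMIs of skeletal and vascular genes. In 1NMPP1 the highest sums were 12313 UMIs of neutrophil genes and 4069 UMIs of hemoglobin and other erythroid genes. None of these 13 mixed barcodes lay in subclusters 1 to 3. Values without them are given where they turn a direction or take an interval across 0.

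Of 20 genes listed for pDC identity apart from the rule's own, 19 were higher in pDCs than in all other kept cells of both libraries and 17 by at least 4-fold. Among all 7828 genes with at least 50 UMIs in pDCs, 4.33% were at least 4-fold higher in both libraries and 67.4% were higher. From 20 UMIs, the minimum for list members, these shares were 4.34% and 64.6% of 9944 genes. The median of the list over other cells was 4.87 in vehicle and 4.35 in 1NMPP1 on the log2 scale. Bst2 (tetherin, a receptor of mouse pDCs that tethers virus particles) was at 1765 and 1997 CPM in pDCs against 61.5 and 81.3 CPM elsewhere. Pacsin1, an endocytic adaptor, was at 270 and 253 CPM against 2.36 and 2.82. Havcr1 (TIM-1, a phosphatidylserine receptor) was at 48.3 and 47.3 CPM against 0.228 and 0.350. Ly6c2 was the exception at 675 and 1039 CPM, against 888 and 1019 CPM elsewhere; 56.6% of the 31-base words at its transcript ends are shared with other genes, Ly6c1 first, so its counts are uncertain. Cd4 and Cd8a, known on mouse pDC subsets, had a UMI in 20.0% and 26.4% and in 18.9% and 23.3% of pDCs, and in 4.26% and 6.20% and in 3.19% and 0.775% after each cell was thinned to 1000 UMIs.

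The 30 genes with the highest level over other cells, taken by the smaller log2 ratio of both libraries, ranged from Lag3 (5.13 in vehicle and 5.08 in 1NMPP1) to Klk1 (7.90 and 8.40). Klk1, Siglech, Ccr9 and Cox6a2 of the rule are among them. Of the others, Grm8, which encodes a metabotropic glutamate receptor, was at 489 and 501 CPM against 2.24 and 2.02 CPM elsewhere. Cd300c, an activating receptor, was at 158 and 189 CPM against 1.62 and 2.67. The transcription factor Mycl was at 42.4 and 43.7 CPM against 0.605 and 0.759. Also on the list were the histamine receptor Hrh1, the nucleotide sugar receptor P2ry14, the adhesion gene Ctnnd2, the GTPase activator Srgap3, the checkpoint receptor Lag3 and the surface protein Cd7. Klk1 and Klk1b27 belong to 1 gene family, and 47.6% and 45.5% of their transcript ends are shared with other kallikrein genes.

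The promoters of these genes were searched for the E-box that Tcf4 and its relatives are known to bind, since these genes are high together in cells chosen in part by Tcf4. The windows are RefSeq's for GRCm38.p6, from 250 bases before to 50 after a transcript start, a gene counts where any of its windows holds the motif, and the search read CAGGTG on both strands (CACCTG on the other). Of the 30 genes, 23 matched a window, and 16 of them held CAGGTG (69.6%). The share was 65% (13 of 20) without the genes of the rule, against 22.6% of all 27025 genes with a window and 18.9% of the 6275 with at least 50 UMIs in pDCs. It was 24.9% (61 of 245) of genes at least 4-fold higher in pDCs, and 37.8% (17 of 45) of those at least 16-fold higher. CAGCTG, another E-box, which reads the same on both strands, was in 1 of the 23 genes (4.35%) against 18.3% of all. The 5 windows below are shown because they belong to pDC surface, protease and factor genes described here, with the E-box in capitals, 5′ to 3′ on the gene's strand. Siglech is chr7:55767934-55768233 (+), Ccr9 chr9:123766961-123767260 (+), Klk1 chr7:44225110-44225409 (+), Cd300c chr11:114960458-114960757 (-) and Mycl chr4:122995681-122995980 (+).
Siglech: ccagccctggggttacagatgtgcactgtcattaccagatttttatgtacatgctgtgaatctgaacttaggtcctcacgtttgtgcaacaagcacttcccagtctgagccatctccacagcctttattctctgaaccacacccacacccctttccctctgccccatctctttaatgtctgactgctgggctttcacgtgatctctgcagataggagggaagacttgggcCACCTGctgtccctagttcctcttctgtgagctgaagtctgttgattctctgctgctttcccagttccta
Ccr9: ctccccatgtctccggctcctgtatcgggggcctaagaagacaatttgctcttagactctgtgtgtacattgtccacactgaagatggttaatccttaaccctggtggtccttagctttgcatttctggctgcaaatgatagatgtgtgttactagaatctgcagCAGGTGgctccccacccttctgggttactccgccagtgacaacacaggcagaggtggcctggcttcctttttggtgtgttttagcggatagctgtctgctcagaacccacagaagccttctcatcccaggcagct
Klk1: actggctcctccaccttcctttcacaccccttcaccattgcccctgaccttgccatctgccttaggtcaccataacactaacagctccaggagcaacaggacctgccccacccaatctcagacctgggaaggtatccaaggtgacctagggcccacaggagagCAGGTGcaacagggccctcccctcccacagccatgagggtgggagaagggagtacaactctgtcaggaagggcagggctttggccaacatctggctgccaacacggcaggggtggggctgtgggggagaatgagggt
Cd300c: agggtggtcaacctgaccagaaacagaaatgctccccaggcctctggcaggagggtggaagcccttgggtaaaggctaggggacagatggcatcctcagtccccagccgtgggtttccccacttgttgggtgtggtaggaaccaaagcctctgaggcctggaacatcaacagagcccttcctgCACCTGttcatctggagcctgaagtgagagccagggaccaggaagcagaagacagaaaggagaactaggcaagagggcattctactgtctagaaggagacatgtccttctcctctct
Mycl: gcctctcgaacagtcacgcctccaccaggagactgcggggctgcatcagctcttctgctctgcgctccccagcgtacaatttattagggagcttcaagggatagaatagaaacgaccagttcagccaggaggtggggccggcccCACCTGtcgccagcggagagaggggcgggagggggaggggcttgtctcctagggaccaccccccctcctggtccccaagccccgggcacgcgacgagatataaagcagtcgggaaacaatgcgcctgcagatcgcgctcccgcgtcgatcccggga
The match begins 20 bases before the start in Siglech, 85 in Ccr9, 87 in Klk1, 67 in Cd300c and 106 in Mycl. It reads CAGGTG in Ccr9 and Klk1 and CACCTG in Siglech, Cd300c and Mycl. A match describes letters in a window and does not show binding.

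Of 14 further pDC transcription factors, 9 were higher in pDCs than in other cells of both libraries, against 64.6% of all genes, and 4 by at least 4-fold. Irf8, a factor of dendritic cell development, was at 1654 and 1715 CPM against 102 and 114 elsewhere. Bcl11a, which acts upstream of Tcf4, was at 667 and 738 CPM against 68.8 and 70.0. Spib was at 152 and 162 CPM in pDCs, below its level of 229 and 212 CPM in B-lineage cells. The inhibitor Id3 was at 7.31 and 8.11 CPM, against 44.9 and 45.5 CPM elsewhere, and Id2, which opposes Tcf4 in conventional dendritic cells, at 50.5 and 31.5 CPM. The E protein Tcf12 was at 922 and 746 CPM against 178 and 170.

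The sensing genes varied widely in level, and interferon genes were almost without UMIs. Tlr7, the endosomal RNA receptor, was at 35.1 and 54.0 CPM in pDCs against 6.97 and 9.27 CPM elsewhere. Tlr9, the DNA receptor, was at the limit of detection, with 5 UMIs in each library, and a UMI in 5.26% and 3.88% of pDCs. Unc93b1, which carries these receptors to endosomes, was at 498 and 509 CPM, and the solute carrier Slc15a4, needed for their signal, at 90.7 and 99.1 CPM. Pld4, an endosomal nuclease, was at 345 and 317 CPM against 66.0 and 77.3. Irf7, the interferon-inducing factor, was at 35.1 and 46.8 CPM against 20.4 and 32.0 CPM elsewhere. Of 23 sensing genes, 19 had at least 20 UMIs and 13 of these were higher in pDCs of both libraries, a share near the 64.6% of all genes. Tlr9, Tlr3, Tlr4 and Ddx58 were the members below 20 UMIs. None of 19 type I and III interferon genes had a UMI in the vehicle pDCs, and the 1NMPP1 pDCs held 1 UMI, of Ifnk.

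Several receptors that restrain or tune pDC activation were high. Lair1, an inhibitory collagen receptor, was at 280 and 271 CPM against 24.4 and 23.4 elsewhere, Ptprs, an inhibitory phosphatase, at 192 and 174 CPM against 19.0 and 18.7, and Lag3 at 59.2 and 48.2 CPM against 1.70 and 1.42. Tyrobp, the adaptor of Siglech, was at 1724 and 1861 CPM against 1160 and 1267 CPM elsewhere. Of the 15 genes of this list, 12 were higher in both libraries, against 64.6% of all genes. The Fc receptor gamma chain Fcer1g was lower in both, at 730 and 801 CPM against 860 and 885 elsewhere, and so was the kinase Btk, at 58.5 and 61.7 CPM against 67.6 and 67.8.

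Among cytokine receptors, Flt3 was at 282 and 269 CPM against 10.9 and 14.02 elsewhere. Csf2rb2 was at 92.9 and 85.1 CPM against 8.68 and 7.94, and Ifnar1, a chain of the type I interferon receptor, at 110 and 108 CPM against 23.5 and 26.2. Among homing genes, the chemokine receptor Cxcr3 was at 17.6 and 14.9 CPM against 1.33 and 1.71, and the chemerin receptor Cmklr1 at 25.6 and 13.1 CPM against 2.32 and 1.93. Selplg, the P-selectin ligand, was at 672 and 541 CPM against 155 and 175. These are the higher members: 10 of 15 cytokine receptors and 10 of 16 measured homing genes were higher in both libraries. Both shares were near the 64.6% of all genes.

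The 26 measured genes of the secretory pathway were close to other cells in level. Of them 22 were higher in both libraries, against 64.6% of all genes, and none by 4-fold, with list medians over other cells of 0.48 and 0.56 on the log2 scale. Xbp1, a factor of secretory cell growth, was at 158 and 144 CPM against 69.0 and 68.3. The MHC class II gene H2-Aa was at 324 and 327 CPM in pDCs and 82.0 and 77.5 CPM in all other cells. It was at 3442 and 3363 CPM in the 34 and 46 conventional dendritic cells. That class asked for a UMI of H2-Ab1, another MHC class II gene, so its high level is in part set by the choice of cells. Of the 15 MHC class II and costimulation genes, 10 were higher in pDCs than in other cells of both libraries, against 64.6% of all genes. Lymphoid genes were partly present. Dntt was at 98.7 and 77.9 CPM in pDCs against 36.6 and 39.6 CPM elsewhere. Rag1, a recombinase gene, gave only 1 and 4 UMIs in pDCs, which were deeper than other cells, and was found in 1.05% and 3.10% of them against 12.9% and 13.7% of other cells. Il7r was at 205 and 215 CPM against 60.7 and 69.2.

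About 3 in 10 pDCs were cycling, read as UMIs of at least 3 of Mki67, Top2a, Ccna2, Ccnb1, Cdk1 and Birc5. In vehicle they were 32 of 95 (33.7%, exact 95% interval 24.3% to 44.1%) and in 1NMPP1 39 of 129 (30.2%, 22.5% to 38.9%). In subclusters 1 to 3 they were 21 of 72 and 23 of 92, and in subcluster 5 they were 5 of 7 and 8 of 12. The same reading took 24.5% and 23.6% of the other kept cells, which were shallower, so no order is read from these shares. Cycling pDCs were deeper, with medians of 21368.5 and 23163 UMIs against 11073 and 12873, and held 49.8% and 46.6% of all pDC UMIs. After each cell was thinned to 1000 UMIs, 26.6% and 27.9% held at least 1 UMI of the cycle genes. The part of free RNA in these calls was not tested.

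Cycling pDCs carried a lower level of the genes that mark pDCs, in both libraries. Of the 20 identity genes, none of which the rule used, 18 were lower in cycling than in other pDCs of both libraries, against 34.2% of all genes, with list medians of -1.17 in vehicle and -1.41 in 1NMPP1 on the log2 scale against 0.01 and -0.02 over all 9950 genes with at least 20 UMIs. Siglech was at 415 CPM in cycling and 1335 CPM in other vehicle pDCs, and at 421 and 1206 CPM in 1NMPP1. Ccr9 was at 217 and 630 CPM in vehicle and at 144 and 529 CPM in 1NMPP1. Grm8 was at 55.8 and 920 CPM in vehicle and at 92.9 and 856 CPM in 1NMPP1. Klk1 was at 14.7 and 105 CPM, and at 18.4 and 129 CPM. Siglech, Ccr9 and Klk1 are genes of the rule, which asks for a number of UMIs and so takes deeper cells at a lower CPM, and cycling cells were deeper. Their values are a description.

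The lower level extended to interferon response and antigen presentation genes. Of the 21 measured interferon response genes, 15 were lower in cycling pDCs of both libraries and 0 higher, against 34.2% and 35.3% of all genes, with medians of -1.37 and -1.15. Of the 15 MHC class II and costimulation genes, 10 were lower in both and 0 higher, with medians of -0.54 and -1.88. Cd74 was at 442 CPM in cycling and 1524 CPM in other vehicle pDCs, and at 213 and 1580 CPM in 1NMPP1. Subcluster 1, with the high Cd74 and H2-Aa, held 0 cycling pDCs. In subcluster 2, 4 of 24 vehicle and 4 of 28 1NMPP1 pDCs were cycling. Its Cd74 and H2-Aa, at 368 and 98.2 CPM, were near the 310 and 84.9 CPM of subcluster 3, where all pDCs were cycling. Whether the lower levels go with cycling or with subcluster was not tested. Among all genes with at least 50 UMIs, 3.47% were at least 2-fold lower in cycling pDCs of both libraries and 6.15% at least 2-fold higher. Sox6, a transcription factor, had 0 UMIs in cycling pDCs of both libraries against 32 and 26 UMIs in other pDCs.

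Tcf4 itself was at 2356 and 4926 CPM (cycling and other) in vehicle and at 1675 and 4198 CPM in 1NMPP1, lower in the cycling cells of both. Ly6d was at 2037 and 1989 CPM in vehicle and 2003 and 2366 CPM in 1NMPP1. Flt3 was at 308 and 257 CPM, and 274 and 265 CPM. The survival gene Bcl2 was higher in cycling cells, at 379 against 168 CPM and 228 against 87.7 CPM, and so was Sox4, a factor of immature lymphocytes, at 201 against 96.2 CPM and 241 against 92.7 CPM. Of 10 cytochrome oxidase subunits, 9 were higher in cycling pDCs of both libraries, against 35.3% of all genes, with medians of 0.41 and 0.45. Within subclusters 1 to 3 alone the identity medians were -1.40 and -1.14, the interferon response medians -1.39 and -1.38 and the MHC class II medians -1.31 and -1.45. The other pDCs there still included all of subcluster 1, which held 0 cycling pDCs.

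**Figure D3:**
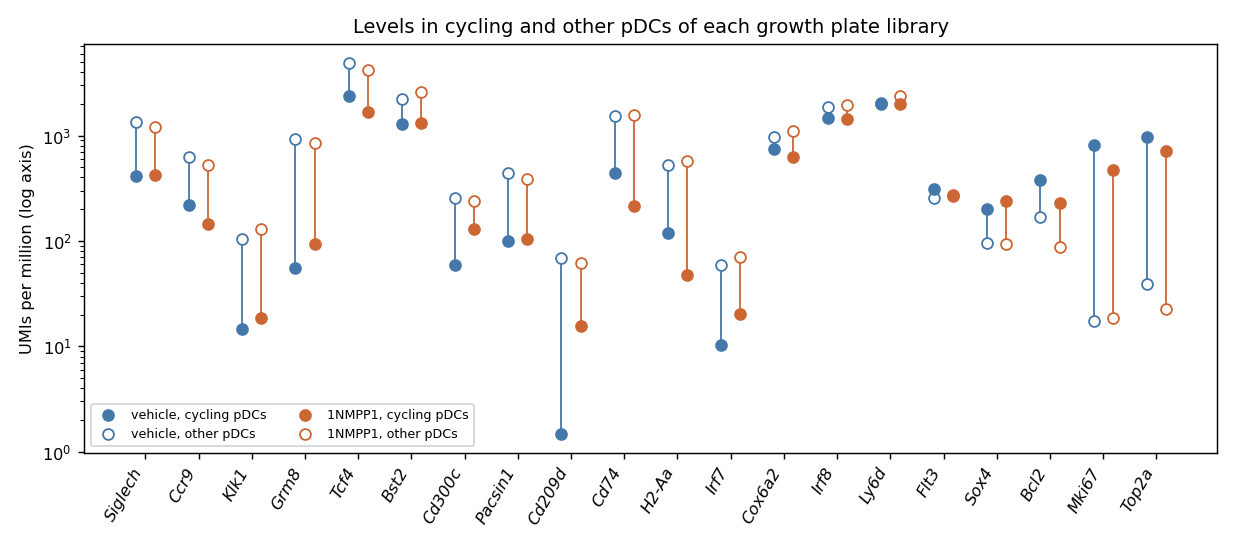
CPM (log axis) of 20 genes in cycling pDCs (filled) and other pDCs (open) of the vehicle (blue) and 1NMPP1 (orange) libraries. For Siglech, Ccr9, Klk1, Grm8, Tcf4, Cd74 and H2-Aa the filled points lie below the open ones in both libraries, and for Sox4, Bcl2 and the cycle genes Mki67 and Top2a above them.

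The share of pDCs among kept cells was 1.01% in vehicle (exact 95% interval 0.820% to 1.24%) and 1.11% in 1NMPP1 (0.927% to 1.32%), a log2 ratio of 0.13 (-0.26 to 0.53). Among male-called cells the log2 ratio was 0.06 and among female-called cells 0.21. These intervals cover counting error only, not the difference between animals.

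Gene by gene, 104 of 7834 genes with at least 50 UMIs were at least 2-fold higher in 1NMPP1 than in vehicle pDCs (1.33%) and 94 at least 2-fold lower (1.2%), together 2.53%, with 44.7% of the genes higher and 55.3% lower. Without the 13 mixed barcodes the counts were 52 and 52, and in subclusters 1 to 3 they were 50 and 57. The median over all genes with at least 20 UMIs was -0.04 on the log2 scale, and 45.6% of these 9950 genes were higher and 54.4% lower, 2.74% and 2.5% by at least 2-fold.

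The identity list showed no common direction. Of its 20 genes 11 were higher and 9 lower in 1NMPP1, with a median log2 ratio of 0.07. That median was 0.30 among male cells and -0.32 among female cells. Plac8, a small cysteine-rich protein of pDCs, had 2374 and 4783 UMIs, a log2 ratio of 0.31 (0.24 to 0.38), and Mctp2 1406 and 1549 UMIs, a ratio of -0.56 (-0.66 to -0.45). The 14 transcription factors split 7 and 7, with a median of -0.05. The sensing list had a median of 0.03, with 11 higher and 8 lower. Tlr7 had 48 and 120 UMIs, a log2 ratio of 0.61 (0.13 to 1.14). Among male cells it was 1.24 and among female cells -0.05.

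The interferon response list stood highest of the lists. Of its 21 measured genes 17 were higher in 1NMPP1, against 45.6% of all genes, and 4 lower, with a median log2 ratio of 0.34. Intervals lay above 0 for 7 of the 21, against 7.23% of all genes. Ifi27l2a, an interferon-induced gene, was at 409 and 708 CPM, a log2 ratio of 0.79 (0.65 to 0.93). Slfn5 was at 26.3 and 51.8 CPM, a ratio of 0.96 (0.42 to 1.56) that was 0.69 (-0.30 to 2.04) among female cells, and the GTPase Ifi47 at 34.4 and 57.6 CPM, a ratio of 0.74 (0.25 to 1.26). Cmpk2, with 7 and 29 UMIs, was the 1 member past 2-fold at a ratio of 1.28 (0.13 to 2.79), a share to be read against the 2.74% of all genes. Its interval included 0 in subclusters 1 to 3 (1.09, -0.20 to 2.78) and among male (0.74) and female cells (1.31). Isg15, with 18 and 31 UMIs, had a ratio of 0.07 (-0.80 to 1.01), and Ifit3 had 0 and 6 UMIs.

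This list was higher in 1NMPP1 in other cells as well. Its median log2 ratio was 0.60 in B-lineage cells, 0.48 in monocytes and 0.57 in neutrophils, with 21 of 21 genes higher in each, and 0.48 in conventional dendritic cells with 15 of 18 higher. Over all genes with enough UMIs, 48.3%, 45.2%, 71.6% and 47.7% were higher in these classes. The neutrophils' median over all genes was 0.11, while that of the other classes lay between -0.02 and -0.01. In pDCs the list's median was 0.37 within male-called cells, 0.44 within female-called cells, 0.38 without the mixed barcodes and 0.46 in subclusters 1 to 3. The difference between pDCs and the other classes was not tested. An interferon element, read as GAAA, any 2 bases and GAAA again, on both strands, was in the windows of 5 of the 14 measured genes that matched (35.7%; Isg15, Rsad2, Slfn5, Stat2 and Trim30a) against 3.99% of all genes. The window of Slfn5 is shown for the gene of these 5 with the highest ratio, chr11:82951852-82952151 (+), with the element in capitals, 155 bases before the start.
Slfn5: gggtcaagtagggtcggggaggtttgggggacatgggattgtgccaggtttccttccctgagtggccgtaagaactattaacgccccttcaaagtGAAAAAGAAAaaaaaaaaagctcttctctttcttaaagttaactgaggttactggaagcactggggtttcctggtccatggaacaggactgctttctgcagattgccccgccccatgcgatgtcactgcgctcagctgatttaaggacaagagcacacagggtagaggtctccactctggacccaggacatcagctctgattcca

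The remaining lists lay closer to the median of all genes. The 10 measured cytochrome oxidase subunits were each higher in 1NMPP1, against 45.6% of all genes, by 0.05 to 0.31. Their median was 0.15, which was 0.09 without the mixed barcodes. In other classes 10 of 10 were higher in B-lineage cells (median 0.11), and 9 of 10 in conventional dendritic cells (0.13) and in neutrophils (0.09). In monocytes 4 of 10 were higher (-0.02). The MHC class II list had a median of 0.15 with 10 higher and 5 lower. The costimulator Cd86 was at 116 and 69.8 CPM, a log2 ratio of -0.74 (-1.06 to -0.41), but -0.26 (-0.84 to 0.33) in subclusters 1 to 3. Cd40 had 4 and 27 UMIs, the latter in 1.55% of cells. The homing list had the lowest median at -0.15 with 6 higher and 10 lower. Cmklr1, with 35 and 29 UMIs, had a ratio of -0.97 (-1.73 to -0.22), which was -0.89 (-2.22 to 0.21) among male and -0.20 (-1.67 to 1.96) among female cells. Selplg had a ratio of -0.31 (-0.44 to -0.19). The proliferation list had 5 higher and 14 lower, a median of -0.14. Mki67 had 561 and 509 UMIs, a log2 ratio of -0.84 (-1.02 to -0.66). Among pDCs that were not cycling it was 0.06 (-0.99 to 1.23), with 12 and 22 UMIs. Mki67 helped to define the cycling cells, so this last value is set in part by the choice of cells.

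**Figure D4:**
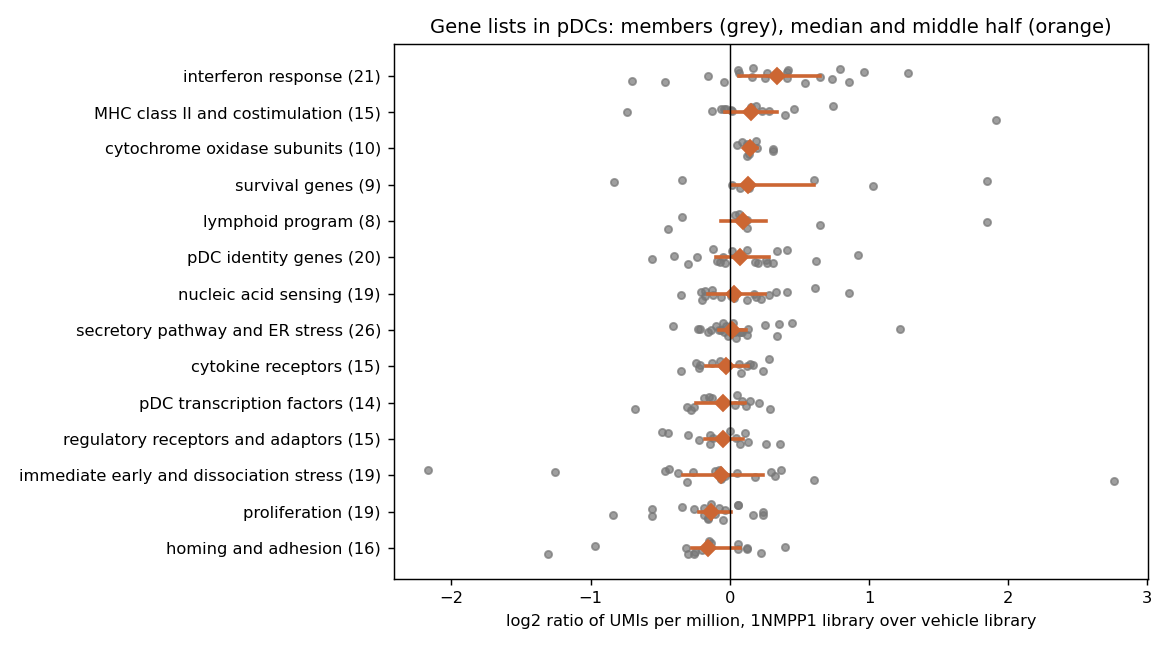
Grey points are log2 ratios of CPM, 1NMPP1 over vehicle, of the measured members of 14 gene lists in pDCs, with the number of members in brackets; the diamond is the list's median and the bar runs from its lower to its upper quartile. The interferon response median of 0.34 lies farthest right and the homing median of -0.15 farthest left, and single members of the immediate early list reach -2.17 and 2.76.

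Survival genes had a median of 0.13 with 7 higher and 2 lower of 9, against 45.6% of all genes higher. Bcl2 was at 273 and 153 CPM, a log2 ratio of -0.83 (-1.05 to -0.62). Among male cells it was -1.49 and among female cells -0.33. Pmaip1 (NOXA, which opposes Mcl1) was at 49.0 and 74.8 CPM, a ratio of 0.60 (0.19 to 1.04), which was 1.21 among male cells and 0.19 (-0.56 to 1.09) among female cells. In the secretory list, Ddit3 (CHOP, a factor of the stress response) had 16 and 62 UMIs, a ratio of 1.22 (0.44 to 2.15), while Hspa5, the main ER chaperone, was at 452 and 449 CPM. Of the immediate early genes, which tissue digestion can induce, 7 were higher and 12 lower, with a median of -0.07. Egr1 had 120 and 43 UMIs, a ratio of -2.17 (-2.72 to -1.67), which was -0.75 without the mixed barcodes and 1.32 within female-called cells. Fos was at 958 and 740 CPM, a ratio of -0.37 (-0.48 to -0.27). Without the mixed barcodes it was -0.066 (-0.18 to 0.05), and among male cells -0.07 (-0.24 to 0.08).

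Among genes named by rank, several ratios rested on few cells or were as large in all other cells. Of the 10 highest, 9 were Tmcc2 (3.73), Hist1h2ap (3.11), Angpt1 (2.20), Hmga1 (1.74), Polr2l (1.67), Itga5 (1.65), Hmgn2 (1.61), Egfl7 (1.49) and Cd34 (1.39). Tmcc2 had 3 and 75 UMIs, of which 1 cell held 77.3% of the latter, and its ratio was 0.57 in subclusters 1 to 3 and 1.59 (-0.03 to 4.19) without the mixed barcodes. Among male cells Tmcc2 was at 1.38 and Itga5 at 0.78, with intervals across 0. Cd34, a progenitor marker, had 14 and 61 UMIs, and its ratio was -0.56 in subclusters 1 to 3. Angpt1, a ligand of the receptor Tie2, had 15 and 115 UMIs in 10 and 25 cells, and its ratio was 1.40 there. Without the mixed barcodes the ratio of Itga5, an integrin chain, was 1.05 (-0.07 to 2.46), and that of Egfl7 was 1.38 in subclusters 1 to 3, with an interval from -0.31. Among female cells Itga5 was at 0.45, Hmga1 at 0.57 and Egfl7 at 1.85, with intervals across 0.

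Hist1h2ap, a histone H2A gene, was at 49.7 and 433 CPM in pDCs, and its ratio in all other cells was 3.50. The chromatin genes Hmga1 and Hmgn2 likewise had ratios of 1.80 and 1.24 in other cells. All 3 share much of their transcript ends with other genes (93.4%, 77.6% and 41.9% of the 31-base words), so their counts are uncertain. Polr2l, an RNA polymerase subunit, was at 0.89 in other cells.

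The 10 lowest were Ank (-2.77), Col19a1 (-2.71), Sdk1 (-1.91), Wdr89 (-1.75), Ms4a4b (-1.72), Lck (-1.56), Ndor1 (-1.51), Haus5 (-1.42), Pde1c (-1.37) and Cdc42bpa (-1.27). Ank, a gene known from cartilage, had 300 and 71 UMIs, and 1 vehicle cell held 91.0% of the former. Its ratio was 0.64 without the mixed barcodes. Wdr89 and Pde1c were lower in all other cells too, at -1.23 and -1.29. The adhesion gene Sdk1, among the leading genes of the cycling subcluster 3, had 119 and 51 UMIs in 20 and 14 cells, and its ratio was -2.16 in subclusters 1 to 3. Col19a1, a collagen, had 74 and 18 UMIs in 11 and 5 cells, and its ratio was -0.09 among female cells. Among male cells the 1NMPP1 library held 0 UMIs of it, so no ratio is given. Lck, a T cell kinase, had 33 and 18 UMIs and a ratio of -0.97 (-2.05 to 0.06) in subclusters 1 to 3. Cdc42bpa was at -0.84 (-1.79 to 0.08) without the mixed barcodes. Among female cells Haus5 was at -0.36, Pde1c at -1.35, Lck at -1.50 and Ms4a4b at 1.04, with intervals across 0.

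The DRG libraries held few cells of the same rule, 13 of 2938 (0.442%) in vehicle and 9 of 2201 (0.409%) in 1NMPP1. Only 1 in each was cycling. Vehicle DRG cells held 31 UMIs of Cx3cr1, 24 of Pf4, 19 of Csf1r and 11 of F13a1, and 1NMPP1 DRG cells 0 of each. The monocyte markers Ccr2 (28 and 20 UMIs) and Ms4a6c (43 and 9) were found in both. DRG cells with 1 further marker, just outside the rule, held up to 23 and 3 Siglech UMIs, against 1 in each growth plate library. The pDC label is therefore less certain in the DRG. Mki67 was at 36.1 and 12.8 CPM in the DRG cells against 410 and 229 CPM in the growth plate. Ccr9 was at 1445 and 638 CPM, against 424 and 350, and Klk1 at 377 and 268 CPM, against 59.97 and 77.5. Tlr7 was at 134 and 281 CPM, against 35.1 and 54.0, and H2-Aa at 872 and 1211 CPM, against 324 and 327. Siglech was at 1140 and 1313 CPM and Grm8 at 583 and 893 CPM, against 489 and 501. Runx2 was at 1001 and 1977 CPM, on either side of the growth plate values of 1679 and 1424, and Plac8 was lower, at 1517 and 1275 CPM against 1736 and 2154. Siglech, Ccr9, Klk1 and Runx2 are genes of the rule, and the genes named here were picked after their values were seen. Tissue, digestion and library cannot be told apart here, and the DRG cells have 1 library for each treatment.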

How the data were processed

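UMI counts per gene and barcode of 32285 genes were used as deposited by the authors, without normalization; the file headers name Cell Ranger 7.2.0 and the submitters' processing notes name mm10. Cells were kept and chosen by the rule above. UMIs were summed over the pDCs of each library and divided by all their UMIs (CPM). Log2 ratios used 0.5 UMI added to each sum and exact conditional 95% intervals, and shares exact Clopper-Pearson intervals; they cover counting error only. Ratios of list members needed 20 UMIs over both libraries, and of other genes 50; a gene can pass through the library where it is high. Genes named by rule were the 10 highest and 10 lowest ratios with a UMI in 10% of the pDCs of the higher library and at least 50% of the level in other cells, and the 30 highest over other cells; list members were chosen for naming after their values were seen. Predicted, sex-linked, immunoglobulin, hemoglobin, ribosomal and mitochondrial genes were not ranked. Members and lists were chosen with earlier results of these data known. Clustering used scanpy 1.11.5 and leidenalg 0.10.2 (2000 variable genes, 30 components, 20 neighbours, resolution 1). No doublets were removed in the values given: the threshold that Scrublet set itself called 1 and 0 barcodes, which is too few to have worked, so the alternative took the 731 and 1115 highest scores. The ratio step, tested on simulated data, put 100% of 100 genes with a simulated log2 change of 2 past 2-fold, 46% of 100 with a change of 1 and 0.157% of the unchanged genes. The simulated counts held counting error only, with no differences between cells or between libraries. The 0.157% is therefore not the error rate of the real comparison, where single cells could carry most of a gene's UMIs. Transcript ends came from GENCODE models and promoters from RefSeq. A few genes that the naming rule or the lists took are not reported here.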

Additional observations from a re-analysis of the deposited data

How the results depend on the processing

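No paired analysis was possible because each group has 1 library. Over the alternatives in pDC membership, depth, scaling and sex, the log2 ratio of the pDC share ran from -0.21 (without cells that held markers of another lineage) to 0.25, within its counting interval of -0.26 to 0.53, and the interferon response median stayed above 0, from 0.14 (thinned to 1000 UMIs) to 0.68. The count at least 2-fold higher (104) was 54 with the highest doublet scores removed, 42 without cells with another lineage's markers, 10 thinned to 1000 UMIs, 50 in male-called and 172 in female-called cells, 58 with 5 UMIs added, and, in alternatives chosen after seeing the data, 52 without mixed barcodes, 50 in subclusters 1 to 3 and 61 in cells not cycling. The count at least 2-fold lower (94) was 10 thinned, 201 by cluster membership, 52 without mixed barcodes and 57 in subclusters 1 to 3, and the count at least 4-fold over other cells (339) was 94 thinned. Thinning keeps far fewer UMIs, and cluster membership takes 266 and 366 cells, most of them not pDCs by the rule.

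By cluster membership the medians were 0.18 for transcription factors, 0.68 for interferon response, 0.19 for homing, 0.20 for cytokine receptors and -0.029, a changed sign, for cytochrome oxidase. Thinned, they were -0.34 for transcription factors, -0.11 for the secretory list, -0.26 for cytokine receptors, -0.045 for MHC class II, 0.022 for cytochrome oxidase and -0.39 for proliferation. The identity median was -0.14 with 1 UMI of Ebf1 and Ly6g allowed, -0.32 in female-called and 0.30 in male-called cells. Within female-called cells the medians were -0.25 for regulatory receptors, -0.12 for the secretory list and 0.080 for cytochrome oxidase, and within male-called cells 0.090 for the secretory list and -0.078 for MHC class II. The secretory median was also -0.10 in cells not cycling, -0.082 with each cell weighing alike and 0.12 without cells with another lineage's markers. The proliferation median was -0.43 in cells not cycling, -0.33 with doublet scores removed and -0.37 in subclusters 1 to 3. The cycling call used some genes of this list. In cycling over other pDCs, cytochrome oxidase in vehicle was 0.19 with 4 cycle genes required, and 0.64 within male-called 1NMPP1 cells, and identity was -0.67 within the 22 female-called vehicle cells. The causes were not tested.

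Single genes changed sign as follows. By cluster membership: Tmcc2 -0.14, Angpt1 -0.38, Cd34 -0.031, Haus5 0.079, Ifi47 -0.042, Fos 0.086, Bcl2 0.079, Blnk 0.014, Ccr9 0.031, Tcf4 0.061 and Runx2 0.11. Thinned: Pde1c 0.029 and Ifi47 -0.22. In cells not cycling: Ms4a4b 0.13 and Mki67 0.058, the latter a gene that the cycling call used. In subclusters 1 to 3: Cd34 -0.56 and Ank 0.14. Within female-called cells: Ank 1.31, Ms4a4b 1.04, Bst2 -0.14, Tlr7 -0.048 and Egr1 1.32. Without cells with another lineage's markers: Cd34 -0.14 and Ank 0.54. Without mixed barcodes: Ank 0.64.

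Depth limits what can be read: genes under 20 UMIs in pDCs, such as Tlr9 and Ifit3, give no usable ratio, and 22 female-called vehicle cells carry each ratio within that sex.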
